A study of Mus musculus with 4 samples.

Results

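The comparison described here set mouse 3T3-L1 preadipocytes labelled as knocked down for Lamp2a against control preadipocytes at day 2 of adipogenic induction. Genes were taken where a probe stood well above background on at least 1 of both day 2 arrays and its processed signal was over 400 on at least 1 of them, which left 10883 of the 20972 genes that the array's transcript accessions matched. The knockdown culture carried the genotype label lamp2a-, and the labels do not state how the knockdown was made or whether it was a single clone. Both cultures had reached confluence at day 0 in medium with 10% serum, and both then received 160 nM insulin, 250 nM dexamethasone and 0.5 mM isobutylmethylxanthine until day 2, so the ratio compares 2 cultures in the same hormones. A knockdown and a control culture from day 0, before hormones, were also hybridised, and their levels are given beside those of day 2. Each group was 1 array, so no ratio had a replicate, no p-value could be given, and a gene was called at a fixed size of 2-fold.

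LAMP2A, made from the Lamp2 gene by alternative splicing, sits in the lysosomal membrane and receives substrates of chaperone-mediated autophagy. In this pathway the chaperone HSC70 binds cytosolic proteins that carry a short targeting motif and brings them to LAMP2A, which passes them into the lysosome for degradation. 3T3-L1 cells are a mouse embryo fibroblast line that turns into fat-storing cells when growth-arrested cells are given insulin, a glucocorticoid and an inhibitor of cyclic nucleotide phosphodiesterases. During the first days of this programme the cells divide again, lose part of their fibroblast matrix and contractile apparatus, and begin to make the transcription factors that later drive fat-cell genes.

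Levels are given as scaled signals, on which 1000 is the 75th percentile of an array's spots, and a level of one probe was not set against that of another. Of 2 Lamp2 probes, the one assigned to transcript NM_001017959 read 3263 in knockdown cells, against 11494 in control cells at day 2, a 3.52-fold lower level. The same probe read 4800 in knockdown cells, against 19810 in control cells at day 0, which was 4.13-fold lower. The Lamp2 probe assigned to transcript NM_010685 read 63038 in knockdown cells, against 68401 in control cells at day 2, and 60134 against 77215 at day 0. The arrays thus held 1 Lamp2 probe with a low level in both knockdown cultures and 1 that differed by 1.09-fold on day 2 and by 1.28-fold on day 0; the files name a transcript record for each probe but no splice form. The other 14 kept genes of chaperone-mediated autophagy were within 2-fold, with log2 ratios from −0.37 for Hsp90b1 to 0.69 for Phlpp1. Hspa8, which encodes HSC70, had a log2 ratio of 0.02 on its brightest probe and between −0.53 and 0.02 over 3.

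Of the 10883 genes, 344 (3.16%) were at least 2-fold higher and 423 (3.89%) at least 2-fold lower in the knockdown culture, 7.05% in all. The median log2 ratio was 0.04, the quartiles were −0.19 and 0.28, and 95% of genes lay between −1.38 and 1.12. The lower side reached further, with 144 genes at least 4-fold lower and 59 at least 4-fold higher, and 32 against 6 beyond 16-fold. The 633 genes over the minimum signal on only 1 array could pass through the array on which they were high, and they held 171 of the lower and 69 of the higher genes. Just inside the minimum lay U2af2, with processed signals of 349 in knockdown and 401 in control cells, and just outside it 2700046G09Rik, with 299.6 and 399.8. Among the 10250 genes over it on both arrays, 275 were higher and 252 lower, so there the higher genes were the more numerous. The counts beyond 4-fold and 16-fold include genes over the minimum on only 1 array and were not split in this way. Repeat spots of one probe gave log2 ratios with a median SD of 0.035 over 218 probes printed 10 times, which is the error of reading an array and not that between cultures. Of 120 called genes with 2 or more kept probes, all probes passed 2-fold in 91.

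**Figure D1:**
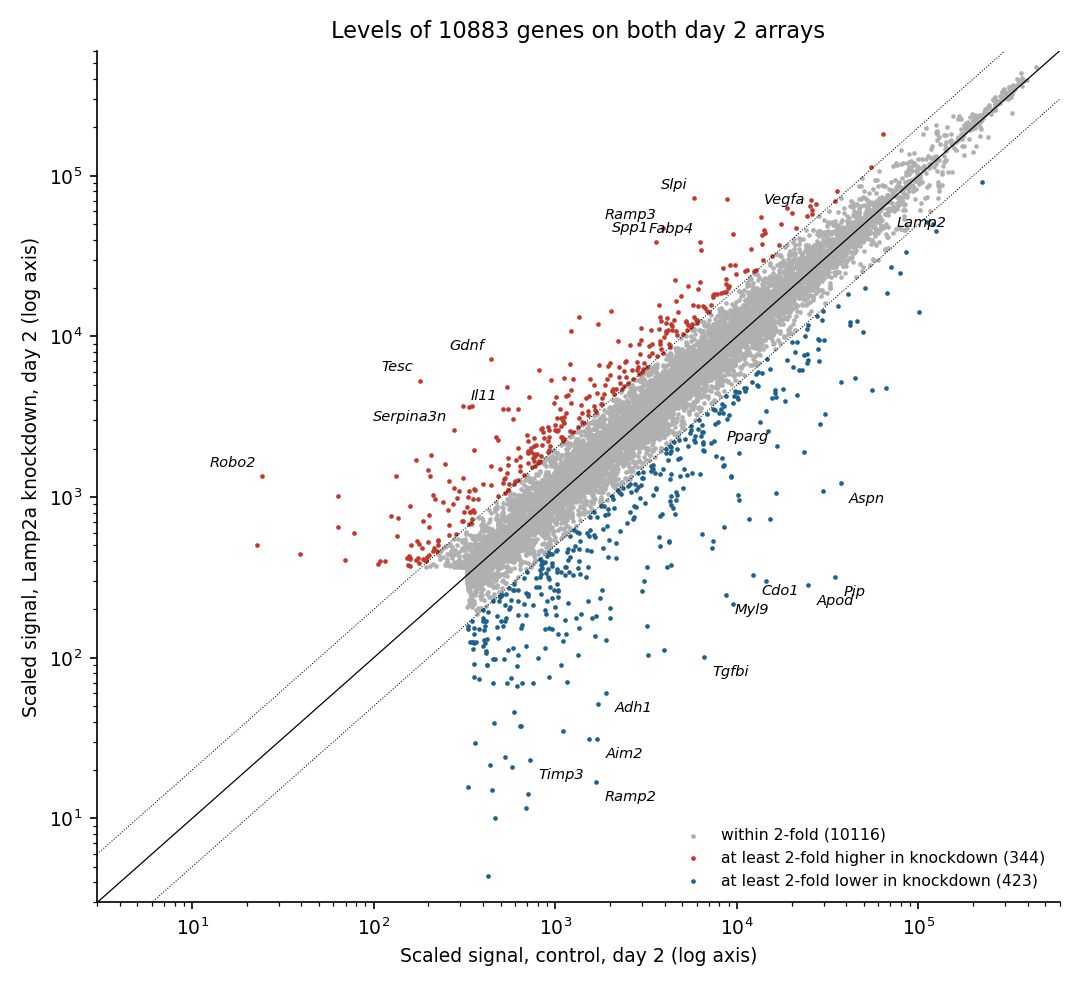
Scaled signal of each of 10883 genes in Lamp2a knockdown cells (vertical, log axis) against control cells (horizontal, log axis) at day 2. Solid line, equal levels; dotted lines, 2-fold; 344 genes lie above the upper dotted line and 423 below the lower one, and Pip, the point farthest below it among genes measured on both arrays, lies at 318 in knockdown and 34925 in control cells.

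The extracellular matrix held some of the lowest ratios in the comparison. Fibroblast matrix combines collagen fibrils with small leucine-rich proteoglycans, which bind the fibrils and set their spacing, and with matricellular proteins, which link matrix to cell-surface receptors. Of 29 kept proteoglycan and matricellular genes, 9 were lower and 4 higher, beside 3.89% lower and 3.16% higher over all kept genes. The median log2 ratio was −0.15, so the list split rather than shifted. Aspn, encoding the proteoglycan asporin, read 1216 in knockdown cells, against 37344 in control cells at day 2, a 30.7-fold lower level; at day 0 it had read 4497 in knockdown, against 17152 in control cells. Its signal was thus lower in the knockdown culture on both days, and the gap was wider at day 2. Omd, encoding osteomodulin, read 21.0 in knockdown, against 579.6 in control cells, 27.7-fold lower. Ogn, encoding osteoglycin, read 5524 in knockdown, against 44552 in control cells, 8.07-fold lower, whereas at day 0 its 81232 in knockdown and 83544 in control cells were nearly equal. Kera, the keratan sulfate proteoglycan keratocan and no member of the list, read 34.8 in knockdown, against 1098 in control cells, 31.5-fold lower, and Lum, lumican, read 751 in knockdown, against 2726 in control cells, 3.63-fold lower.

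The same list had members on the other side. Dcn, encoding decorin, the proteoglycan that neighbours Lum on its chromosome, read 182242 in knockdown, against 64186 in control cells, 2.84-fold higher. Spp1, encoding the secreted phosphoprotein osteopontin, which binds integrins and CD44, read 38909 in knockdown, against 3570.4 in control cells, 10.9-fold higher, and it was already 3.99-fold higher at day 0. The syndecans are transmembrane heparan sulfate proteoglycans that act as co-receptors for growth factors; Sdc2 was 4.10-fold higher with 55283 in knockdown, against 13497 in control cells, while Sdc4 sat at the threshold with a log2 ratio of 1.01. Among matricellular proteins, Postn, encoding periostin, was 7.11-fold lower, with 14210.0 in knockdown, against 101091 in control cells. Thbs1, encoding thrombospondin 1, and Fbln1, encoding fibulin 1, had log2 ratios of −1.86 and −2.38. Outside any list, Col26a1, a short collagen, was 21.9-fold higher, from a signal of 500.4 in knockdown, against 22.9 in control cells, and read 22.3 or less on both day 0 arrays, so a single array carried its level.

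Most collagen chains were within 2-fold. Of 18 kept collagen chains 2 were lower and 2 higher, beside 3.89% lower and 3.16% higher over all kept genes. The collagen median was −0.16, and the main fibril chains Col1a1 and Col1a2 had log2 ratios of −0.24 and −0.01. Col18a1, whose product is a basement membrane collagen, was 3.54-fold lower on 2 probes with 6188 in knockdown, against 21888 in control cells, and Col11a1 was 2.53-fold lower. Col16a1 and Col27a1 were 2.88-fold and 2.70-fold higher. Adamts2, the protease that trims the amino end of procollagen, was 3.60-fold lower at 18549.8 in knockdown, against 66786 in control cells, and Pcolce2, which enhances trimming of the other end, was 6.63-fold higher at 1351 in knockdown, against 204 in control cells.

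Proteases and their inhibitors also differed. Among 19 kept genes of the matrix metalloproteinase, ADAMTS and inhibitor list, 5 were lower and 2 higher. The shares over all kept genes were 3.89% lower and 3.16% higher. Timp3, the matrix-bound inhibitor of metalloproteinases, read 23.1 in knockdown, against 721 in control cells, 31.2-fold lower. At day 0 the gap in Timp3 was larger still, 200.3 in knockdown, against 16329 in control cells. Mmp3, stromelysin 1, read 104 in knockdown, against 3235 in control cells, 31.2-fold lower, and Mmp13, a collagenase, was 7.59-fold lower. Adamts15, which cleaves the large proteoglycans versican and aggrecan, read 484 in knockdown, against 7316 in control cells, 15.1-fold lower. Serpine2, the gene for protease nexin 1, was 2.36-fold higher. Slpi, which encodes a secreted inhibitor of leukocyte elastase, read 72910.4 in knockdown, against 5800.2 in control cells, 12.6-fold higher, and Wfdc12, of the same whey acidic protein family, was 9.81-fold higher. Inside the lysosome list, Ctsh and Ctsk, encoding the cysteine proteases cathepsin H and cathepsin K, were 9.25-fold and 8.05-fold lower, while the other 30 of 32 kept members stayed within 2-fold and the median was −0.15. Ctla2a and Ctla2b, inhibitors of cysteine proteases that are near-identical copies, read 1091 and 726 in knockdown, against 29829 and 15161 in control cells; their probes may read either copy.

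**Figure D2:**
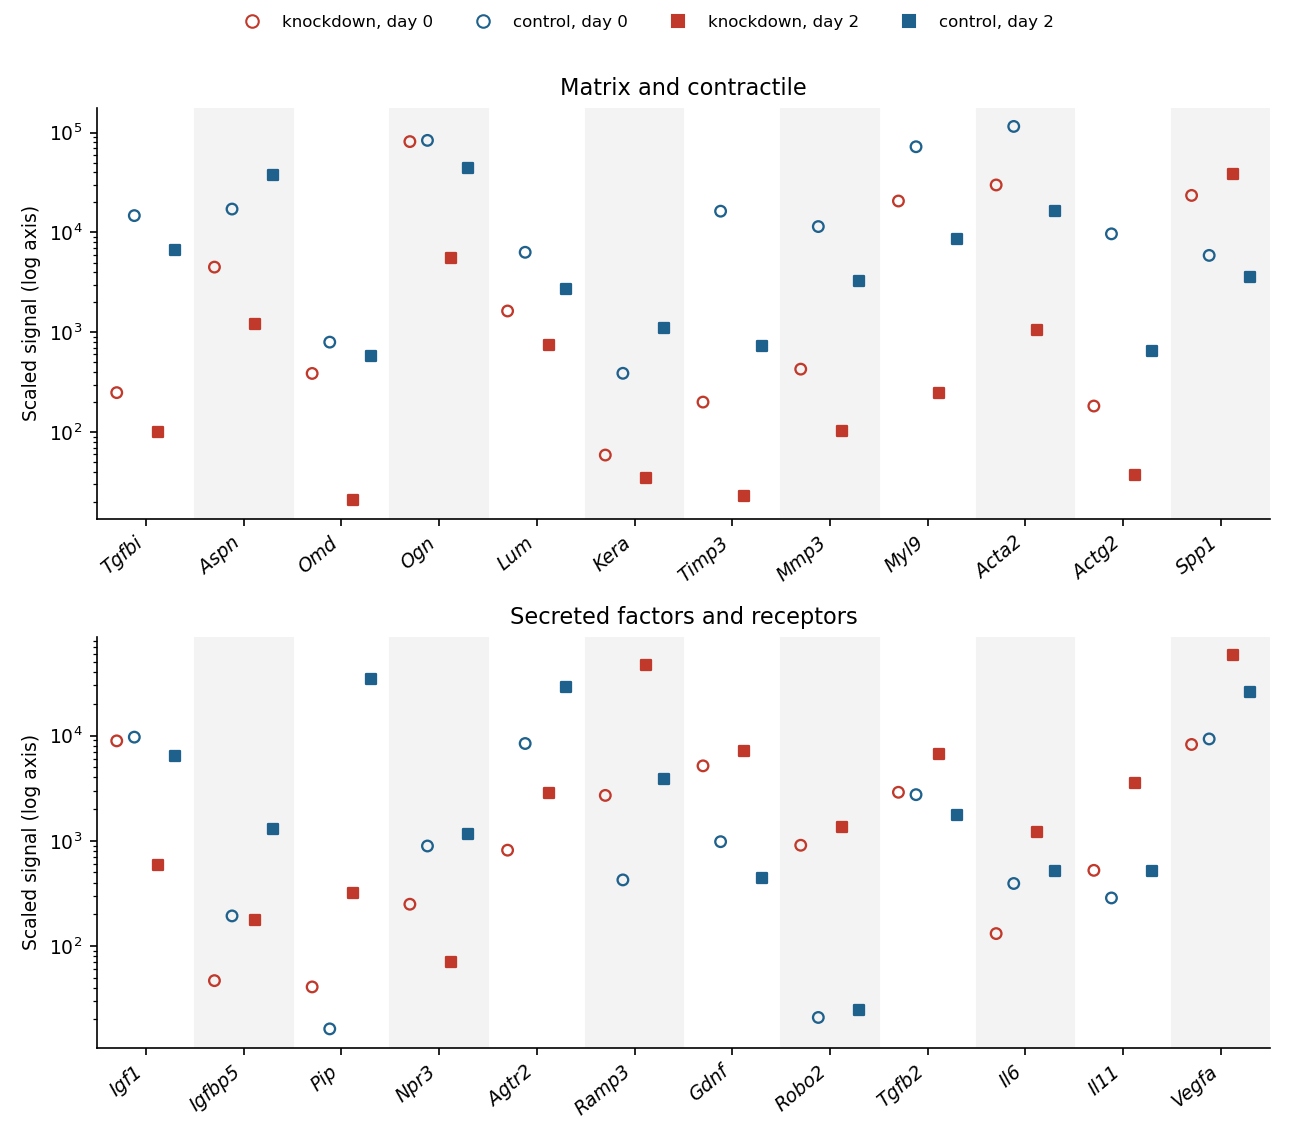
Scaled signal (vertical, log axis) of matrix and contractile genes (upper) and of secreted factors and receptors (lower) on the 4 arrays, 1 point per array; circles, day 0; squares, day 2; red, knockdown; blue, control. Tgfbi and Timp3 lie low in the knockdown culture on both days, Ogn and Igf1 are level at day 0 and low at day 2, and Gdnf and Robo2 are high in the knockdown culture on both days.

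Of the contractile genes of the smooth muscle type, 4 were lower in knockdown cells and the others were within 2-fold. These genes mark fibroblasts that carry stress fibres, and serum response factor drives many of them through the CArG box, an AT-rich element flanked by CC and GG. Of 14 kept members none was higher and 13 lay below 0, with a median of −0.43, beside 3.89% lower and a median of 0.04 over all kept genes. Myl9, the regulatory light chain of non-muscle and smooth muscle myosin, read 246 in knockdown, against 8690.2 in control cells, 35.4-fold lower; at day 0 both cultures had high levels, 20644 in knockdown, against 72152 in control cells. Acta2 and Actg2, the smooth muscle actins, were 15.6-fold and 17.3-fold lower, with 1058 and 37.4 in knockdown, against 16514 and 646 in control cells. The cytoplasmic actins Actb and Actg1 had log2 ratios of −0.06 and −0.02, both within 2-fold. Among the members within 2-fold were Tpm2 at −0.10, Actn1 at −0.17 and Csrp1 at 0.13. Tagln, encoding transgelin, was 2.02-fold lower. All 4 lower genes were also past 2-fold lower at day 0, where the list median was −0.54. Their day 0 log2 ratios were −1.81 for Myl9, −1.95 for Acta2, −5.73 for Actg2 and −3.14 for Tagln. Sgcb, encoding the membrane protein beta-sarcoglycan, read 51.2 in knockdown, against 1719 in control cells, with 3 probes between −6.43 and −5.07 on the log2 scale, and was the only 1 of 7 kept sarcoglycan and dystrophin genes past 2-fold. The promoter of Myl9 is shown for its CArG box, whose match is in capitals, over the 250 bases before the start site, on the plus strand at chr2:156775214-156775463 of GRCm38.p6 as given by RefSeq.
Myl9: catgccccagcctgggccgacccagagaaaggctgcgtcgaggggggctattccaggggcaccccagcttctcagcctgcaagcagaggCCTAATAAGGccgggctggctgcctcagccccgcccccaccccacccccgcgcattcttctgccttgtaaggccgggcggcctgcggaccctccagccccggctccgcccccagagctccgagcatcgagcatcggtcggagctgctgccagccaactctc
A CArG box on either strand was present in the 300-base window (250 before and 50 after the start site) of 1.62% of 8756 kept genes with a promoter, in 2.56% of lower genes and in 3.05% of higher genes. Of 2 lower contractile genes with a promoter in the table, Myl9 had one, as did 2 of 10 others that were within 2-fold.

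Genes induced by TGF-beta in fibroblasts were split between low and high. TGF-beta signals through SMAD proteins and raises matrix and contractile genes in these cells. Of 19 kept targets, 7 were lower and 2 higher, with a median of −0.24. Over all kept genes 3.89% were lower and 3.16% higher, with a median of 0.04. Tgfbi, a secreted protein that binds collagen and integrins, read 101 in knockdown, against 6632 in control cells, 65.4-fold lower, and was 59.2-fold lower at day 0 with 249 in knockdown, against 14747 in control cells. Cdh2, encoding N-cadherin, was 3.37-fold lower on 2 probes. The target Il11 went the other way, with a log2 ratio of 2.77. Of the ligands and signal carriers, 3 of 26 kept genes were higher and 2 lower. Tgfb2, a TGF-beta ligand, read 6673 in knockdown, against 1747 in control cells, 3.82-fold higher on 2 probes, and Inhbb, an activin subunit, was 2.89-fold higher. Ltbp2, a microfibril protein of the latent TGF-beta binding family, read 4648 in knockdown, against 55196 in control cells, 11.9-fold lower, and Inhba, another activin subunit, was 2.18-fold lower. Smad3, which carries the signal to the nucleus, had 1.01 on its bright probe and 0.19 on a dimmer one.

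Some secreted inhibitors of bone morphogenetic proteins were low and another was not. BMPs are TGF-beta relatives whose signal the Id genes report, and antagonists such as gremlin 1 and NBL1 trap the ligands outside the cell. Nbl1 read 957 in knockdown, against 10247 in control cells, a log2 ratio of −3.42, and Grem1 was 2.63-fold lower. Nog, encoding the antagonist noggin, had a log2 ratio of −0.05. The low pair was low before hormones too, and their day 0 log2 ratios were −1.90 for Nbl1 and −1.90 for Grem1. The target genes Id4 and Smad6 were 2.51-fold and 2.18-fold lower and Id2 was 2.06-fold higher. Id1 and Id3 were within 2-fold, at −0.09 and 0.38. In all, 5 of 14 kept members of the list were lower and 1 higher, beside 3.89% lower and 3.16% higher over all kept genes. Wnt modulators showed a similar split, 4 of 15 lower and 1 higher with a median of −0.35. Sfrp2, which binds Wnt proteins, was 8.06-fold lower with 99.1 in knockdown, against 799 in control cells. Rspo3 and Rspo2, the R-spondins that prolong Wnt receptor life at the surface, had log2 ratios of −2.73 and −1.63, and Fzd4, a Wnt receptor, was 2.14-fold lower. Wnt4, a ligand, read 20131 in knockdown, against 8885 in control cells, 2.27-fold higher on 2 probes. None of 11 kept Notch pathway genes passed 2-fold, beside 7.05% of all kept genes, a share at which so short a list may hold none.

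Growth factors and their carriers differed gene by gene. Igf1, the growth factor that acts through the IGF1 receptor, read 591 in knockdown, against 6456 in control cells at day 2, 10.9-fold lower, although its day 0 signals of 8919 in knockdown and 9680.2 in control cells were close; its 4 probes ranged from −3.45 to −1.12. Igfbp5, an IGF carrier, was 7.35-fold lower. The receptor gene Igf1r had a log2 ratio of 0.01. Fgf7, keratinocyte growth factor, read 27808 in knockdown, against 9720.3 in control cells, 2.86-fold higher, while the receptor Fgfr2 was 2.48-fold lower on 2 probes and Fgfr3 had −1.54 and −0.35 on its probes. Vegfa, the main angiogenic factor, read 58057 in knockdown, against 25885 in control cells, 2.24-fold higher on one probe and 0.77 on the log2 scale on the other. Its relative Vegfd was 3.48-fold lower. Nrp2, a co-receptor for VEGF and semaphorins, was 3.31-fold higher with 62689 in knockdown, against 18934 in control cells, and Kitl, stem cell factor, was 2.91-fold lower.

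Guidance and neurotrophic factors held the gene with the highest ratio. Robo2, a receptor for the Slit guidance proteins, read 1345 in knockdown, against 24.3 in control cells at day 2, 55.2-fold higher, with a dimmer probe at 4.41 on the log2 scale. At day 0 it read 907 in knockdown, and on the control array it was not well above background, so it was near background in both control cultures. Gdnf, the glial cell line-derived neurotrophic factor, which signals through RET and GFRA1, read 7219.5 in knockdown, against 440.0 in control cells, 16.4-fold higher, and 5161 against 981 at day 0. Sema5a, a membrane semaphorin, was 4.93-fold higher, Efna1, an ephrin, 2.89-fold higher, and Sema3a, a secreted semaphorin, 4.20-fold lower. Their list of 26 kept genes had 4 higher and 1 lower, beside 3.16% higher and 3.89% lower over all kept genes. Tesc, encoding the calcium-binding protein tescalcin, read 5309 in knockdown, against 179 in control cells, 29.7-fold higher. Ptprn, a protein of dense-core vesicles, and Slc6a2, the noradrenaline transporter, were 8.99-fold and 8.77-fold higher, with 4877 and 1821 in knockdown, against 542 and 208 in control cells. Stab2, a scavenger receptor that takes up hyaluronan, and Adgrb2, an adhesion G protein-coupled receptor, had 1019 and 3687 in knockdown, against 63.6 and 348 in control cells, both over 10-fold higher.

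Accessory proteins of peptide hormone receptors moved in opposite directions. RAMP proteins pair with the calcitonin receptor-like receptor, and which RAMP is present decides the hormone it answers to. Ramp3 read 47345 in knockdown, against 3898 in control cells, 12.1-fold higher. Ramp2 read 17.0 in knockdown cells, not well above background, against 1679 in control cells, at least 99-fold lower, where a level not well above background sets only a bound. Ramp1 could not be placed, since its probes above background ranged from −0.02 to 5.02, the brightest giving −0.02. Mrap, whose product carries the ACTH receptor to the surface, read 444 in knockdown, against 39.3 in control cells, 11.3-fold higher, and Mc2r, the ACTH receptor itself, read 319.6 in knockdown, against 1469.8 in control cells, 4.60-fold lower. Mc2r and further members of this family were looked up after the values had been seen, among them Npr3, the clearance receptor for natriuretic peptides (16.4-fold lower), Npy1r, a neuropeptide Y receptor (11.5-fold lower), Agtr2, an angiotensin receptor (2851 in knockdown, against 28824 in control cells), and Bdkrb1, a bradykinin receptor (5.81-fold higher). In all, 5 of 17 kept genes of the family were lower and 3 higher, beside 3.89% lower and 3.16% higher over all kept genes. Agt, the precursor of angiotensin, was 4.52-fold lower with 2949.6 in knockdown, against 13347 in control cells. Pip, which encodes the secreted prolactin-induced protein, had the lowest measured ratio, 318 in knockdown, against 34925 in control cells, 109.9-fold lower; on the day 0 arrays it read 40.8 in knockdown and was not well above background in control cells, so its control level was high at day 2 only.

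Interferon-stimulated genes were low as a group. Interferons switch on these antiviral genes through a complex that holds STAT2 and IRF9 and binds the interferon-stimulated response element. Of 21 kept members 11 were lower, none was higher and all 21 lay below 0, with a median of −1.11. The share lower over all kept genes was 3.89%, and their median was 0.04. Oas1a, a sensor of double-stranded RNA, read 31.2 in knockdown, against 1532 in control cells, 49.1-fold lower, with its other probe at −2.68 on the log2 scale. Rtp4 read 266 in knockdown, against 1816 in control cells, 6.83-fold lower. Usp18, the protease that removes ISG15 and dampens the receptor, was 4.69-fold lower, Ifi44 4.57-fold lower, and Ifit1, which binds foreign RNA, 4.10-fold lower with 333 in knockdown, against 1368 in control cells. Stat2 and Irf9, parts of the complex, had log2 ratios of −0.17 and −0.85. At day 0 the list had already stood low, with 15 of 21 members at least 2-fold lower and a median of −1.56. The control signals differed between days too, with 31835 at day 0 and 1532 at day 2 for Oas1a and 18861 at day 0 and 1368 at day 2 for Ifit1, on arrays of different slides. Over the 14 members above the minimum signal on both day 2 arrays the median was −0.66. None of 13 kept genes of MHC class I antigen presentation passed 2-fold, beside 7.05% of all kept genes, a share at which so short a list may hold none.

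The bases before the start site of 3 lower members are shown for the core of the interferon-stimulated response element, searched as a pair of GAAA blocks parted by any 2 bases, or of TTTC blocks on the other strand, with each match in capitals. They come from RefSeq on GRCm38.p6, at chr5:120907526-120907775 on the minus strand for Oas1a, chr19:34640639-34640888 on the plus strand for Ifit1 and chr4:156200819-156201068 on the minus strand for Isg15, each read 5′ to 3′ along the gene.
Oas1a: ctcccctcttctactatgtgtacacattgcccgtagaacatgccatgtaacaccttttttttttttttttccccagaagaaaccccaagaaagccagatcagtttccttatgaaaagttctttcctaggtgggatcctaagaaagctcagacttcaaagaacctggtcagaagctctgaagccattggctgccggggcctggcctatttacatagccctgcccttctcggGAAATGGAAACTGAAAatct
Ifit1: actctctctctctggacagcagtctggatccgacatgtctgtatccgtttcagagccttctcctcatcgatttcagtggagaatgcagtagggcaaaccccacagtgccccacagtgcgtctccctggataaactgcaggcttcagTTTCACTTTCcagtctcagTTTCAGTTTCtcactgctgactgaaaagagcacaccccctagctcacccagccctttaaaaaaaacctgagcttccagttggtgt
Isg15: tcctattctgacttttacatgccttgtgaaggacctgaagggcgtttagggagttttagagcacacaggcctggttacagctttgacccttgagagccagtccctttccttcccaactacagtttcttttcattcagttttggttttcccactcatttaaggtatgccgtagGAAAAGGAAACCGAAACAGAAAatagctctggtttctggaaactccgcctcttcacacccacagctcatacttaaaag
The matches began 20 bases before the start site in Oas1a, 104 in Ifit1 and 78 in Isg15. In the 300-base windows the core was found in 5 of 8 lower members with a promoter in the table (Bst2, Ifih1, Ifit1, Isg15 and Oas1a) and in 2 of 7 members within 2-fold (Eif2ak2 and Stat2). It occurred in 9.62% of 312 lower genes, 4.58% of 262 higher genes and 3.61% of all kept genes with a promoter, and in 3.44% of all 32851 windows. A match describes letters in the window and not a bound site.

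Inflammatory genes went several ways. Of 17 kept interleukin 6 family and STAT3 genes 5 were higher and none lower, the median being 0.34. The shares over all kept genes were 3.16% higher and 3.89% lower, with a median of 0.04. Il11, a cytokine that signals through the shared receptor gp130, read 3527 in knockdown, against 516 in control cells, 6.83-fold higher. Clcf1, another ligand, was 4.18-fold higher, and Il6 itself read 1216 in knockdown, against 518 in control cells, 2.35-fold higher. Socs3, the feedback inhibitor that STAT3 induces, read 58261 in knockdown, against 20169.7 in control cells, 2.89-fold higher, and the kinase Jak2 was 2.68-fold higher. At day 0 none of these 17 genes was higher.

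Acute phase genes were divided. Saa3, a serum amyloid A, read 2564 in knockdown, against 14927 in control cells, 5.82-fold lower, and Lcn2, the iron-carrier-binding lipocalin 2, was 4.19-fold lower. Saa1 and Saa2, near-identical copies that the probes may not separate, were 3.35-fold and 3.26-fold lower. Serpina3n, a secreted serine protease inhibitor, read 2606 in knockdown, against 276 in control cells, 9.46-fold higher, and Serpina3c was 3.21-fold higher; the mouse Serpina3 genes are close copies, so a probe may read more than one. The chemokines Cxcl13, Cxcl10 and Ccl5 were 5.38-fold, 3.36-fold and 2.11-fold lower, and Cxcl5, a neutrophil attractant, was 2.24-fold higher with 47154 in knockdown, against 21034 in control cells. Of 11 kept chemokines 3 were lower and 1 higher. Aim2, a sensor of cytosolic DNA, read 31.1 in knockdown, against 1705 in control cells, 54.7-fold lower. In the interleukin 1 and inflammasome family, put together after the values had been seen, Aim2 stood beside lower Il1rn, the receptor antagonist (8.76-fold), and lower Casp1 (2.83-fold), and beside higher Il33 (7.65-fold), Gsdmd (log2 ratio 2.91), Il1rl1, the receptor for IL-33 (5.54-fold), and Il18 (4.20-fold), 3 lower and 5 higher of 13. Over all kept genes 3.89% were lower and 3.16% higher, and this family was picked with its values known. Il13ra1, an interleukin 13 receptor chain, read 1693 in knockdown, against 171 in control cells, 9.90-fold higher.

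Immediate early genes lay mostly above 0 in knockdown cells. Growth factors and cyclic AMP raise the AP-1 genes within minutes, and their products control later targets. Of 20 kept genes 7 were higher and 1 lower, with 16 above 0 and a median of 0.76. Over all kept genes 3.16% were higher and 3.89% lower, with a median of 0.04. Dusp2, a phosphatase that switches off MAP kinases, read 10808 in knockdown, against 1227 in control cells, 8.81-fold higher. Of the AP-1 subunits, Fosl1 read 15768 in knockdown, against 3722 in control cells, 4.24-fold higher, and Junb was 3.49-fold higher. Fosl2 had 1.64 on its bright probe and 0.36 on a dimmer one. Fos and Egr1 were within 2-fold, at 0.35 and −0.20. The exception on the lower side was Klf4, 2.31-fold lower. Phosphodiesterase and Rgs genes, which end cyclic AMP and G protein signals, had a median of 0.59 over 16 kept genes, with Pde4b at 16629 in knockdown, against 4629 in control cells, 3.59-fold higher on 2 probes, and Rgs17 2.88-fold higher. Genes that glucocorticoids induce centred on −0.06, 1 of 21 kept being higher and 3 lower. Ppargc1a, a coactivator that cyclic AMP raises, read 3684 in knockdown, against 309 in control cells, 11.9-fold higher, and its second probe gave 4.27 on the log2 scale.

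Circadian clock genes had the highest median of the 61 lists, 0.79 over 15 kept genes, of which 5 were higher. All kept genes had a median of 0.04, and 3.16% of them were higher. The clock is a feedback loop in which CLOCK and BMAL1 activate genes whose products repress them. Dbp, an output factor of the loop, read 12414 in knockdown, against 3809 in control cells, 3.26-fold higher on 2 probes, although at day 0 it read 12981 in knockdown and 14873 in control cells. Bhlhe40, a repressor of the loop, was 2.59-fold higher, and the nuclear receptors Rora and Nr1d2 were 2.24-fold and 2.16-fold higher. Arntl, which encodes BMAL1, and Per2 had log2 ratios of −0.02 and 0.05. At day 0 the median of the list was 0.00, and 1 of its 15 members was higher. The hour of collection is not stated in the labels.

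Hypoxia-responsive genes and genes of glycolysis lay mostly above 0. HIF factors bind the core ACGTG in these genes when oxygen is low. Of 22 kept hypoxia genes 7 were higher and none lower, 19 lay above 0 and the median was 0.55. Beside this, 3.16% of all kept genes were higher and 3.89% lower, with a median of 0.04. Bnip3, a mitochondrial protein of mitophagy, read 67059 in knockdown, against 27159 in control cells, 2.47-fold higher with 3 probes between 1.30 and 1.40. Ak4, a mitochondrial adenylate kinase, read 4235 in knockdown, against 1533 in control cells, 2.76-fold higher, and Ankrd37 was 2.13-fold higher. Epas1, which encodes HIF-2 alpha, ranged from 0.21 to 1.59 over its probes. Hif1a had a log2 ratio of 0.84. Bnip3 and Ak4 were also higher at day 0, with log2 ratios of 1.33 and 1.82. Of 24 kept glycolytic genes 3 were higher, beside 3.16% of all kept genes, and 21 lay above 0, with a median of 0.44. Eno2, an enolase, read 5346 in knockdown, against 942 in control cells, 5.68-fold higher, Pfkfb3, which makes the activator of phosphofructokinase, had 1.17 and 0.49 on its probes, and Hk2, a hexokinase, read 8624 in knockdown, against 4298 in control cells, just past 2-fold. At day 0 the glycolysis median was 0.48.

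The bases before the start site of Ankrd37 and Bnip3 are shown for the core ACGTG or its complement CACGT, capitals marking each match; in Bnip3 both strands match in one CACGTG. RefSeq places them on GRCm38.p6 at chr8:45999851-46000100 and chr7:138909507-138909756, both on the minus strand.
Ankrd37: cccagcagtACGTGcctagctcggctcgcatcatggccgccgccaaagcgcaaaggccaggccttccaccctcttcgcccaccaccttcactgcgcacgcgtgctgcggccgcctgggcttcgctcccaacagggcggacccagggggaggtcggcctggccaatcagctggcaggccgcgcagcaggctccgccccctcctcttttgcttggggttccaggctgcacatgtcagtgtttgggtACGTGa
Bnip3: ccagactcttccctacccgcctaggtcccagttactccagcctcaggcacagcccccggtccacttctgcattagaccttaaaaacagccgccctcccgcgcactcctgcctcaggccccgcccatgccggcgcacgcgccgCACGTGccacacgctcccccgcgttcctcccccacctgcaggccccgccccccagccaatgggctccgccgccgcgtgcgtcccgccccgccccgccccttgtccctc
The core is common: it occurred in the 300-base window of 29.5% of kept genes, 27.9% of higher genes and 18.6% of lower genes. Among hypoxia genes 4 of 5 higher members and 10 of 12 members within 2-fold had it, so its presence did not divide them.

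**Figure D3:**
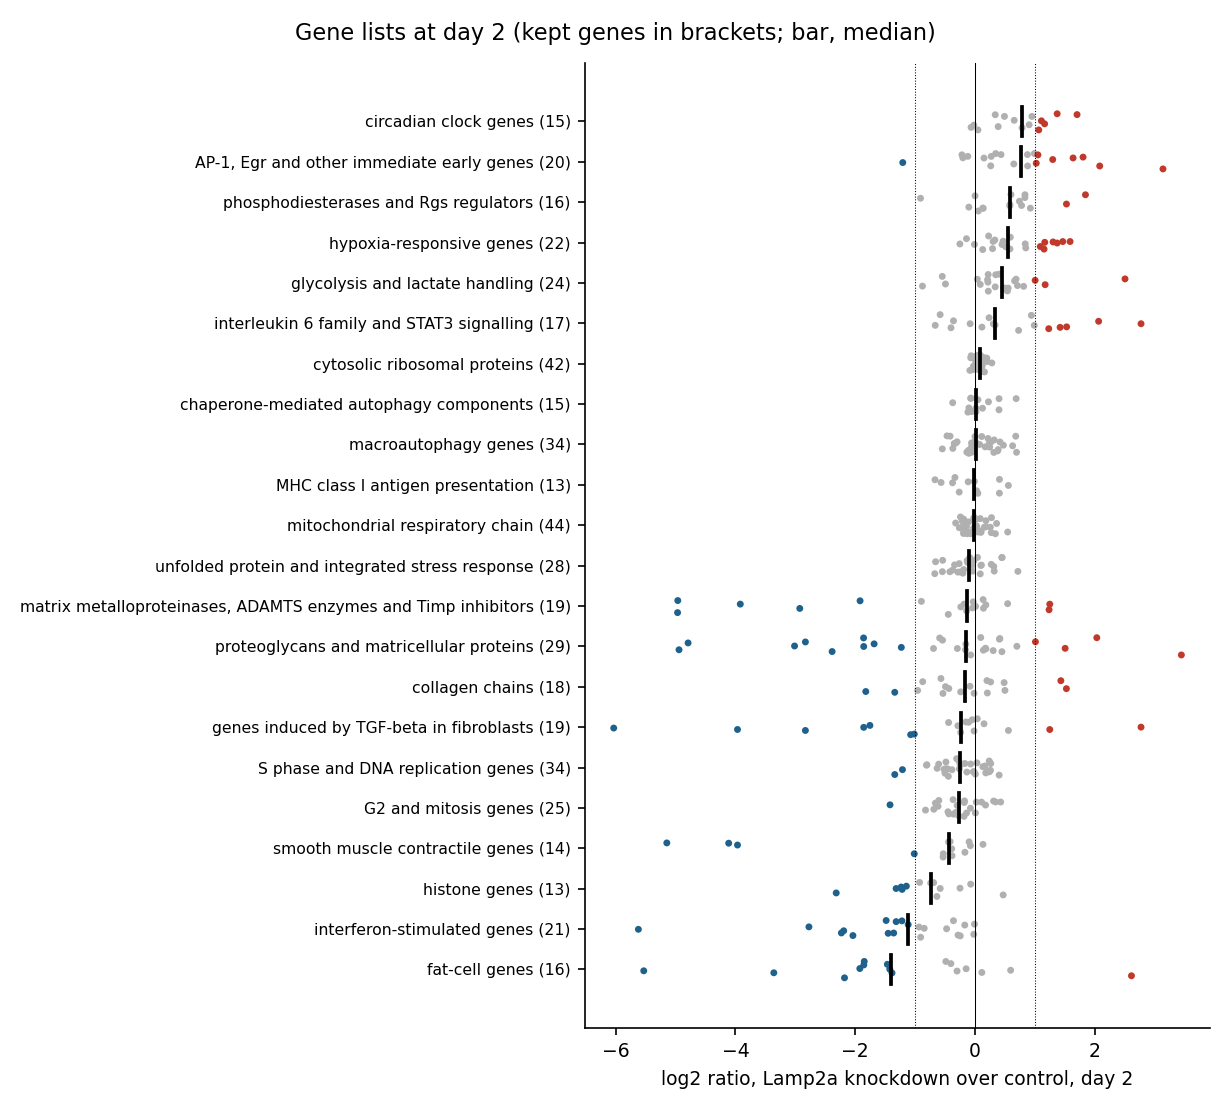
The log2 ratio, knockdown over control at day 2, of each kept member of 22 gene lists; points, genes (red, at least 2-fold higher; blue, at least 2-fold lower); bars, list medians; dotted lines, 2-fold. Clock, immediate early and hypoxia genes centre between 0.55 and 0.79, ribosomal, respiratory chain and autophagy genes close to 0, and histone, interferon-stimulated and fat-cell genes between −1.40 and −0.74.

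Cell cycle genes were called about as often as all kept genes. In 3T3-L1 cells the hormones start a round of division before differentiation. Of 34 kept S phase genes 2 were lower (5.88%), with a median of −0.25, and of 25 kept G2 and mitosis genes 1 was lower (4%), with a median of −0.27, beside 3.89% lower and a median of 0.04 over all kept genes. Pcna, the sliding clamp of DNA replication, read 33695 in knockdown, against 85231 in control cells, 2.53-fold lower, Rrm2, a subunit of ribonucleotide reductase, was 2.31-fold lower and Top2a, which untangles DNA, 2.67-fold lower. Ccnd1, cyclin D1, was 2.27-fold lower with 4537 in knockdown, against 10280.1 in control cells. Mki67, a proliferation marker, was within 2-fold at −0.18, and Myc at 0.07. Histone genes, most of which are transcribed during S phase, were lower in 5 of 13, with 12 below 0 and the variant H2az1, which is made outside S phase too, at 0.47, and a median of −0.74; their copies are alike, so the single genes are uncertain. At day 0 the same lists stood the other way, with medians of 0.53 for S phase, 0.85 for G2 and mitosis and 0.42 for histones, and 9 of 25 mitosis genes at least 2-fold higher. Of 19 p53 targets 2 were lower, among them Trp53inp1, 3.63-fold on 2 probes.

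Enzymes that handle alcohols, aldehydes and foreign compounds were lower in knockdown cells more often than higher. This family was gathered by symbol after the values had been seen. Of 97 kept members 21 (21.6%) were lower and 2 (2.06%) higher, beside 3.89% and 3.16% of all kept genes. The median was −0.15, and most members were within 2-fold. Adh1, an alcohol dehydrogenase that also oxidises retinol, read 60.6 in knockdown, against 1909 in control cells, 31.5-fold lower, and its neighbour Adh7 was 8.74-fold lower. Cdo1, cysteine dioxygenase, which starts the breakdown of cysteine to taurine, read 327 in knockdown, against 12272 in control cells, 37.6-fold lower, and 74.1 against 2411 at day 0. Sult1a1, a phenol sulfotransferase, read 104 in knockdown, against 1332 in control cells, 12.7-fold lower on the brighter of 2 probes. Ephx2, soluble epoxide hydrolase, was 13.9-fold lower. Aldh1a7 and Aldh1a1, near-identical aldehyde dehydrogenases, were 11.3-fold and 2.08-fold lower, and Dhrs3, a retinal reductase, was 4.77-fold lower. Fmo1, a flavin monooxygenase, was at least 44.6-fold lower on a probe not well above background in knockdown cells, while its other probe gave −0.96 on the log2 scale. Mgst2, a microsomal glutathione transferase, was the highest of the family, 7.14-fold, and its relative Mgst1 was 3.18-fold lower on 2 probes. Gclc and Gsr, which make and recycle glutathione under NRF2, were 2.25-fold and 2.39-fold higher, but Hmox1, another NRF2 target, was 2.14-fold lower, and the NRF2 list centred on −0.02.

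Amino acid and transport genes included Slc1a5, the glutamine transporter, at 7766 in knockdown, against 24186 in control cells, 3.11-fold lower on 2 probes, and Mthfd2, a mitochondrial folate enzyme, 3.31-fold lower. Clca3a1 and Clca3a2, close copies of a family that regulates chloride channels, read 299.5 and 215 in knockdown, against 14396 and 9482 in control cells, and the probes may not separate them. Cacna1g, a T-type calcium channel, was 5.46-fold lower on 2 probes. Apod, encoding the lipocalin apolipoprotein D, read 282 in knockdown, against 24691 in control cells, 87.5-fold lower, but a dimmer second probe gave −0.02 on the log2 scale. S100b, a calcium-binding protein, was 21.8-fold lower. Abca1, which exports cholesterol, was 2.57-fold higher, and Abcg1 was at least 21.0-fold lower on a probe that stood clearly up on the control day 2 array alone.

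Of the fat-cell genes, 9 of 16 kept members were lower and 1 higher, beside 3.89% lower and 3.16% higher over all kept genes. Their median was −1.40, and −0.49 over the 11 above the minimum signal on both arrays. Pparg, the nuclear receptor that drives the programme, read 2953 in knockdown, against 7912 in control cells, 2.68-fold lower, and Cebpa, its partner factor, was 3.60-fold lower. Plin4, a lipid droplet coat protein, was 10.3-fold lower, and Fabp4, a fatty acid carrier, went the other way with 38477 in knockdown, against 6289.7 in control cells, 6.12-fold higher. Fabp5, a related carrier, had a log2 ratio of −0.70. Cidec had a bound of at least 46.2-fold lower on one probe and −0.77 on the log2 scale on the other. Gata2 and Gata3, which hold back fat-cell differentiation, were 6.54-fold and 2.26-fold higher. They read 1614 and 810.0 in knockdown, against 247 and 358 in control cells. They were the only 2 higher among 17 kept genes that restrain adipogenesis, and 1 of these, Zfp521, was lower at −1.43. The median of the 17 was 0.30, beside 0.04 over all kept genes.

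Housekeeping and protein quality control genes gave ratios close to those of all kept genes. No kept gene passed 2-fold among 44 of the mitochondrial respiratory chain, 42 cytosolic ribosomal proteins, 34 of macroautophagy, 31 of ribosome biogenesis, 28 of the unfolded protein and integrated stress response and 24 housekeeping genes. Their medians lay between −0.10 and 0.08, beside a median of 0.04 and 7.05% past 2-fold over all kept genes. Calls were fewer among bright genes. The brightest of 5 classes held 41 higher and 36 lower of 2177 genes, and the dimmest 91 higher and 189 lower of 2177. The lists were not matched for brightness. In all 9 of the 61 lists had no kept member past 2-fold, 4 had a median above 0.5, 4 below −0.5, and 53 lay within. Among 31 proteasome genes Psma1 was 2.15-fold lower, and among 19 chaperones the small heat shock protein gene Cryab was 3.67-fold lower on 2 probes.

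Genes called at day 2 were set beside the day 0 pair, which shares no array with the day 2 pair; the control day 0 array lay on another slide than the other 3, and the knockdown day 0 signals alone were not detrended. Spots well above background made up 88.6% of the knockdown and 67.4% of the control array at day 0. How far this gap entered the day 0 ratios of dim genes was not tested. Over the genes kept at day 2, 5.22% were at least 2-fold higher and 3.05% lower in the day 0 knockdown culture. Of 343 higher genes, 110 (32.1%) were also at least 2-fold higher at day 0 and 3 were lower. Of 421 lower genes, 169 (40.1%) were also lower at day 0 and 16 were higher. Seen from day 0, 169 of 332 lower genes (50.9%) and 110 of 568 higher genes (19.4%) were called the same way at day 2. Tgfbi, Timp3, Cdo1, Sgcb, Robo2, Gdnf and Slpi belonged to the genes called on both days. Igf1, Ogn, Postn, Saa3, Lcn2, Dusp2, Ppargc1a and Tgfb2 were past 2-fold at day 2 and within 2-fold at day 0.

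**Figure D4:**
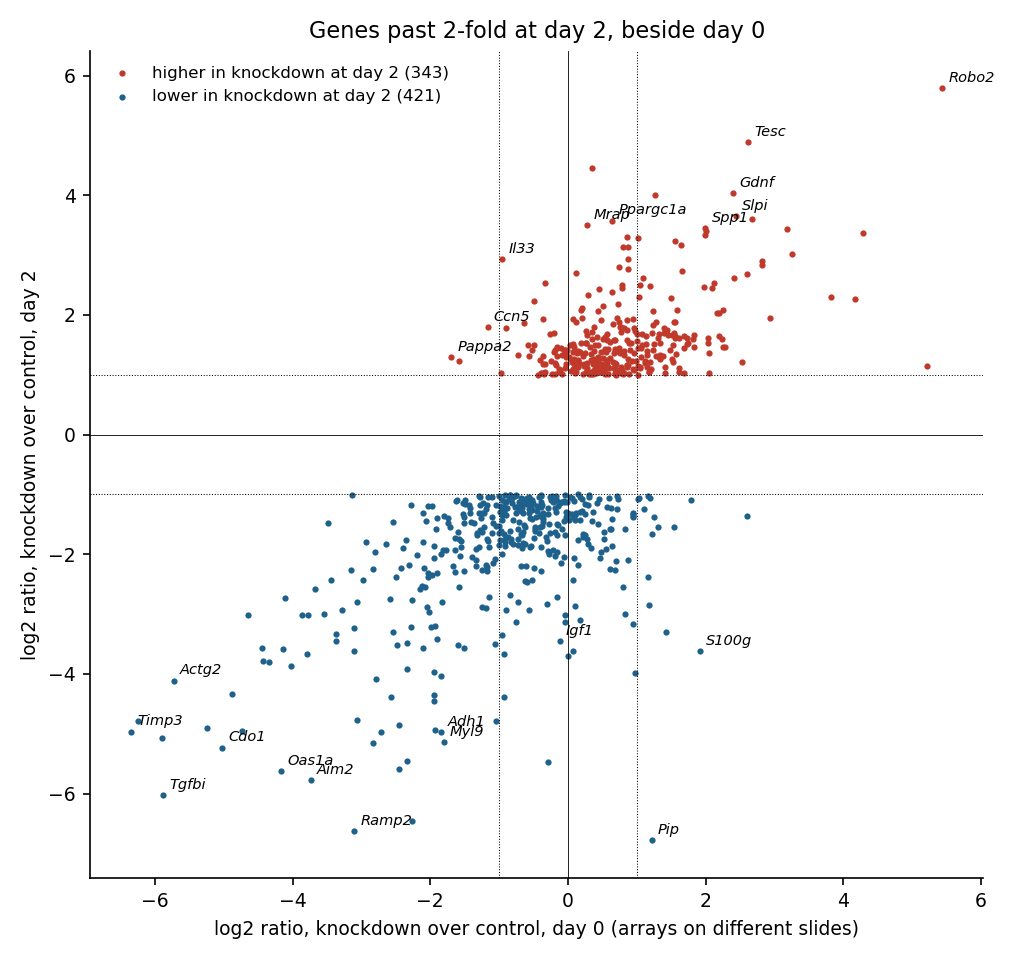
The log2 ratio, knockdown over control, at day 2 (vertical) against day 0 (horizontal) of 343 higher (red) and 421 lower (blue) genes; dotted lines, 2-fold. Robo2, Tesc and Gdnf lie high on both axes, Tgfbi, Timp3 and Cdo1 low on both, Igf1 near 0 at day 0, and Pip and Ccn5 on opposite sides.

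Some of the called genes lay side by side on a chromosome. Of 317 lower genes whose next protein-coding gene was kept, 54 (17.0%) had a neighbour that was also lower, beside 4.98% of 8780 kept genes. For higher genes it was 39 of 280 (13.9%), beside 4.35%. Gene order was taken from the RefSeq table. The runs included Aspn, Omd and Ogn, which lie next to each other among the proteoglycans described above, and Lum and Kera, next to which Dcn was higher. They also included Adh7 and Adh1, Clca3a1 and Clca3a2, Saa1 and Saa2, and Phf11a, Phf11b and Phf11d, the last with log2 ratios of −2.55, −1.90 and −1.79. Many runs are families of close copies, and whether their probes read each other's transcripts was not tested. Next to Ogn, Nol8 was within 2-fold at −0.13; next to Aspn, Ecm2 had no kept probe, and Cenpp beyond it was at −0.73.

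**Figure D5:**
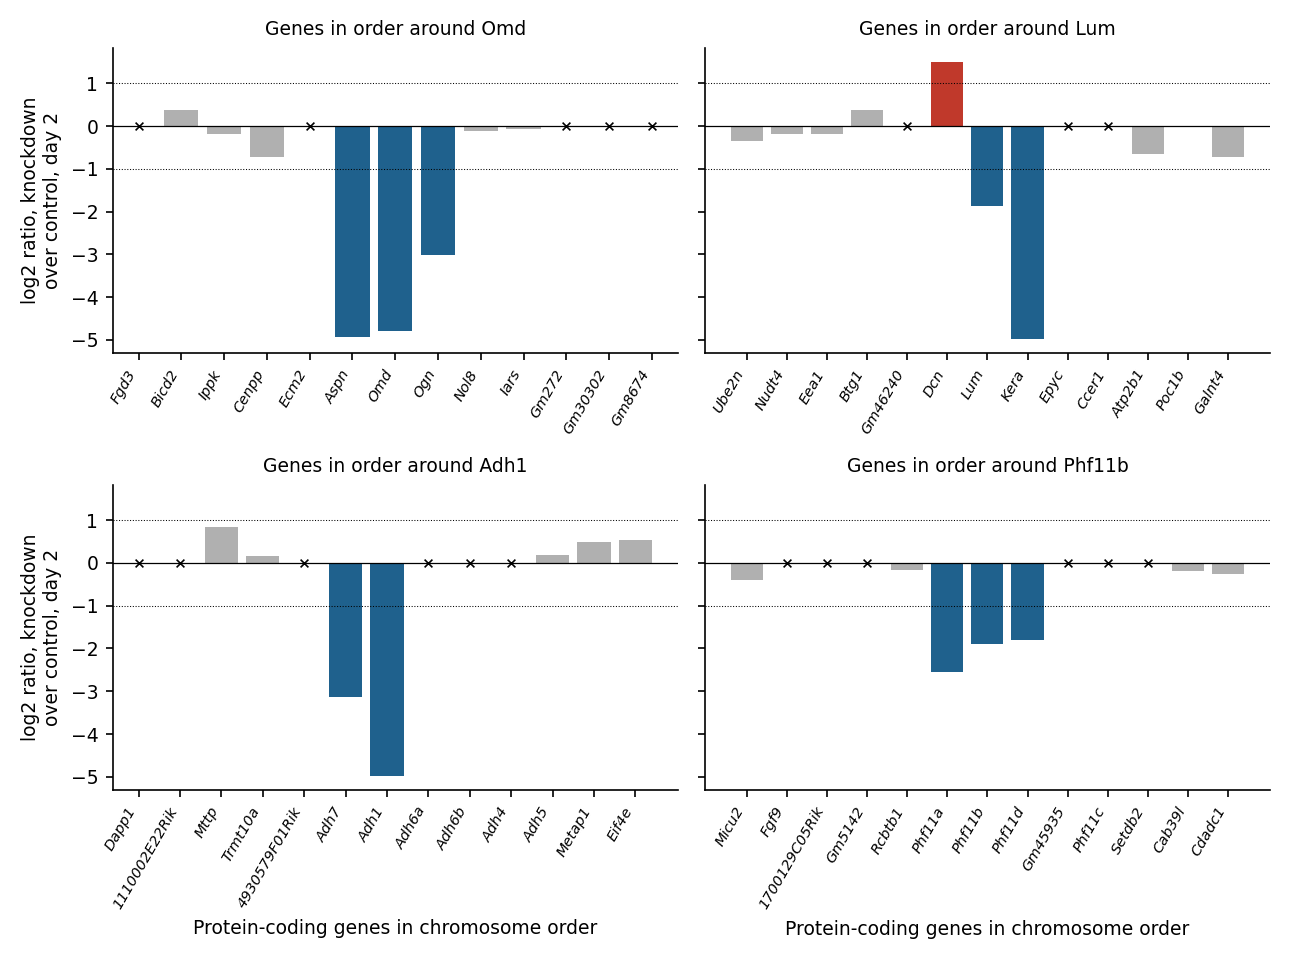
The log2 ratio, knockdown over control at day 2, of protein-coding genes in chromosome order around Omd, Lum, Adh1 and Phf11b; bars, kept genes (blue, at least 2-fold lower; red, at least 2-fold higher; grey, within 2-fold); crosses, genes with no kept probe. The Aspn, Omd and Ogn bars reach −4.94, −4.79 and −3.01 the gene next to Ogn is within 2-fold and the gene next to Aspn has no kept probe, and Dcn stands at 1.51 beside Lum and Kera.

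Markers of the labelled cell type were present. All 10 fibroblast markers were kept, with a median log2 ratio of −0.38: 8 were lower than in control cells, Lum and Pdgfrb past 2-fold, and Dcn and Fn1 were higher. Their summed scaled signal was 1073050 in knockdown and 1062740 in control cells at day 2. Of 7 epithelial markers none was kept, and of 7 endothelial markers Pecam1 and Kdr were kept. Of 8 osteoblast and cartilage markers 3 were kept and all were higher in knockdown cells, with Alpl at 398 in knockdown and 109 in control cells, Sox9 at 11365 and 7036, and Runx2 at 1043 and 589.8, while Sp7, Ibsp, Acan and Col2a1 were not kept. Of 8 skeletal muscle markers 3 were kept, Tnnt3 at 480.4 in knockdown and 184 in control cells, Acta1 at 39.2 and 462, and Myod1 at 396 and 341. Of 8 fat-cell markers Cidec, Fabp4, Retn and Pparg were kept, and Adipoq, Plin1, Lep and Cfd were not. The part of any such cells in the results was not tested. Of 8 macrophage markers 3 were kept, Csf1r, Itgam and Cd14, and the 7 on the array summed to 37919 in knockdown and 27599 in control cells at day 2, of which Itgam made up 35214 and 24035. The pan-leukocyte marker Ptprc read 66.4 in knockdown and 77.9 in control cells. Spots well above background made up 78.7% of the knockdown and 84.2% of the control array at day 2. Total RNA of a whole culture was measured, so a lower ratio from fewer expressing cells and one from less RNA per cell cannot be told apart.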

How the data were processed

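Total RNA of 3T3-L1 cultures was labelled with Cy3 and hybridised to 1-colour Agilent arrays of design 028005, 1 array per group, per the labels and the file headers. Feature Extraction 10.7.3.1 made the deposited intensity values, per the file headers: background was subtracted from each spot, and on 3 of the 4 arrays, both day 2 arrays among them, a smooth trend across the slide was divided out.

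From these processed intensities, spots marked as non-uniform or population outliers and control spots were left out, repeat spots of a probe were averaged, and log2 signals were centred on each array's 75th percentile, which was 1096 on the knockdown and 1228 on the control day 2 array. Of 55681 probes 19602 were kept. Accessions were matched to the RefSeq table (GRCm38.p6), naming 13711 kept probes, and the brightest kept probe stood for a gene. A side not well above background gives a bound, set at its own signal or the lowest signal well above background, whichever was higher. No spot was saturated. With 1 array per group the comparison is a ratio and a fixed 2-fold call, without a test, and the number of arrays limits the precision.

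Named genes were the 20 largest ratios measured on both arrays in each direction whose other kept probes went the same way, the 5 largest bounds, members of 61 gene lists past 2-fold (up to 6 per list and direction), bright members of lists near 0, and a set of fixed markers; 8 families were added after values had been seen, and genes within 2-fold named beside them as points of comparison, and the chromosome runs, were chosen likewise. The members and lists were chosen with earlier results of these data known. Alternatives were other scalings (quantile and cyclic loess with limma 3.58.1 in R 4.3.3, other percentiles and centres), normexp with an offset of 50, signals without detrending, other minimum signals, outlier spots kept, other probe rules and other fold sizes. The ratio step was tested on simulated arrays with known fold changes. Python 3.11.15 with numpy 2.4.6 and pandas 2.3.3 did the rest.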

Additional observations from a re-analysis of the deposited data

Results flagged for a closer look

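Among genes named here, 5 had log2 ratios past 2-fold in opposite directions on the 2 days, and with 1 array per group the difference between days was not tested. Ccn5, a CCN family matricellular protein, was at 1.79 at day 2 and −1.17 at day 0, with 13153 in knockdown, against 3793 in control cells at day 2, and 3352 against 7532 at day 0. Il6 was at 1.23 at day 2 and −1.58 at day 0, where it read 131 in knockdown, against 393 in control cells. Pappa2, a protease that cleaves IGF carriers, was at 1.29 at day 2 on its bright probe, 0.25 on a dimmer one, and −1.69 at day 0. Pip was at −6.78 at day 2 and 1.22 at day 0, the day 0 value being a bound from a control signal not well above background. S100g, a calcium-binding protein chosen after its values had been seen, was at −3.62 at day 2, with 29.4 in knockdown, against 362 in control cells, and at 1.92 at day 0, also a bound with control cells not well above background.

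Probes without a gene name were left out of the comparison. Of 5891 such probes that passed the signal filter, 3.99% were past 2-fold, 98 higher and 137 lower, a smaller share than the 7.05% of named genes, and their median log2 ratio was 0.03.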

How the results depend on the processing

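No paired analysis was possible because each group had 1 array. The counts moved by over 1.5 times under 4 choices: a 1.5-fold call gave 1038 higher and 901 lower genes, a 4-fold call 59 higher and 144 lower, genes with 2 or more kept probes that all passed (an alternative chosen after seeing the data) 39 higher and 52 lower, and the minimum signal on both arrays 252 lower. The higher share of called genes was 44.9%, between 36.8% without detrending and 52.2% with the minimum signal on both arrays. No named gene past 2-fold changed sign and no list median beyond 0.5 changed sign under any scaling, background or filter tried. Sign changes of named genes within 2-fold were not counted. Of 209 named genes past 2-fold, 196 remained so without detrending, where Obox1 gave no value, and 200 with normexp; Acsl4, Epha2, Hk2, Sdc4 and Smad3 fell under 2-fold in 5 or 6 settings each, Id2, Nr4a1 and Wwtr1 in 3 and Clock in 2. Cidec, Fmo1 and Obox1 fell under 2-fold at a lower minimum signal, where another probe stood for the gene. A minimum of 1000 moved a list median by up to 1.25. Normexp moved a named ratio by up to 2.09 on the log2 scale. Fold sizes of genes near background on 1 side therefore depend on the background step.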

Other observations

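Several gene families outside the lists above also held large ratios, and were looked up after the values had been seen. Of all kept genes 3.16% were higher and 3.89% lower. Of 19 kept serpins 7 were higher and 3 lower: Serpinb9, an inhibitor of granzyme B, was 7.33-fold lower with 140.4 in knockdown, against 1029 in control cells, and Serpinf1, pigment epithelium-derived factor, 2.21-fold lower. Of 173 kept solute carriers 7 were higher and 9 lower, close to the shares of all genes; Slc40a1, the iron exporter ferroportin, was 4.88-fold lower at 112 in knockdown, against 547 in control cells, and Slc2a13, a myo-inositol transporter, 3.79-fold higher. Of 28 kept actins and myosins, the unconventional myosins Myo18a and Myo1e were 2.21-fold and 2.10-fold higher and Myo7a 3.67-fold lower.

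Sis, encoding the intestinal disaccharidase sucrase-isomaltase, read 3654 in knockdown, against 336 in control cells, 10.9-fold higher, and 1206 against 133 at day 0. Dynap and Mreg, which encodes melanoregulin, were 10.3-fold and 10.1-fold higher, and Chst8 and Cpne8 had bounds of at least 30.0-fold and 27.6-fold lower. Obox1, an oocyte homeobox gene, was the largest bound on the higher side, with 417 in knockdown cells and no signal well above background on the other 3 arrays, and its other probe gave 0.00 on the log2 scale. Itgbl1, an integrin beta-like protein, was at least 29.0-fold lower on one probe and 0.00 on the log2 scale on its other, with 2104 in knockdown, against 11582 in control cells at day 0 on the first.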
